A study of Drosophila melanogaster with 10 samples.

Results

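The vacuolar proton pump (V-ATPase) was examined through the 24 genes of the deposited table whose symbol begins with Vha, out of 11621 genes in all. All 10 libraries came from brains of male Drosophila melanogaster of the genotype labelled wild-type (W1118), a laboratory stock with white eyes, at 4 to 7 days of age. In 5 libraries the flies had eaten the LPHC diet, with protein to carbohydrate at 0 to 1, and in 5 the HPLC diet, at 1 to 2, both at 360 g per L. The series compares these diets because, per its design text, sucrose taste responses were lower after LPHC and higher after HPLC. Nothing in the labels ties a library to its own batch of flies, so every p-value rests on the spread among these samples, some of which may be technical.

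The pump is a rotary motor. Its V1 sector, in the cytosol, splits ATP in a ring of alternating A and B subunits. The D and F subunits form the central shaft that this ring turns, and the E and G subunits form the stalks that hold the ring still. The turning shaft drives the c ring of the V0 sector in the membrane past the fixed a subunit, where protons cross. In the brain the pump acidifies lysosomes and endosomes, and it charges synaptic vesicles with the proton gradient that transmitter transporters use. Several fly subunits have paralogues, of which some are read in most tissues and others mainly in a few.

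With the deposited scaling, most subunit genes differed little between diets. Of the 24 genes, 19 had a mean normalised read count of at least 10 and were tested, and 5 fell below it. One was called higher on HPLC, Vha68-2 of the A subunit, and 1 lower, Vha36-3 of the D subunit, by limma at an adjusted p under 0.05. The other 17 were not called. Over all 9896 genes tested the same rule called 40.9%, with 22.1% higher and 18.9% lower. The median log2 fold change of the tested subunit genes, HPLC minus LPHC, was 0.0023, against −0.03 over all genes. Its median size regardless of sign was 0.06, against 0.17 over all genes.

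The count was also read against genes of like abundance. The 15 tested genes on the list of widely expressed paralogues had means between 1802 and 39486 normalised reads. Of the 3147 genes with a mean in that range, 44.7% were called, and their median absolute log2 fold change was 0.15. Among the 15, 1 was called and 14 were not, with a median log2 fold change of 0.0075. The 14 include Vha100-1 (−0.04), although that gene is known in flies for its role in neurons. For those 14, the 95% intervals of the log2 fold change stayed within 0.23 of 0 in either direction with the deposited scaling, a difference of at most 1.17-fold. Such an interval does not show that the levels were equal. When libraries were scaled to equal neuron-marker counts instead, the median of the widely expressed genes was 0.19, against 0.15 over all genes. Of the 14, 4 were then called higher: Vha26 (0.29), VhaAC39-1 (0.26), Vha100-2 (0.25) and Vha55 (0.22). That scaling called 3104 of all 9896 genes tested higher and 185 lower. The plot of fold changes by subunit shows the intervals with the deposited scaling.

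**Figure D1:**
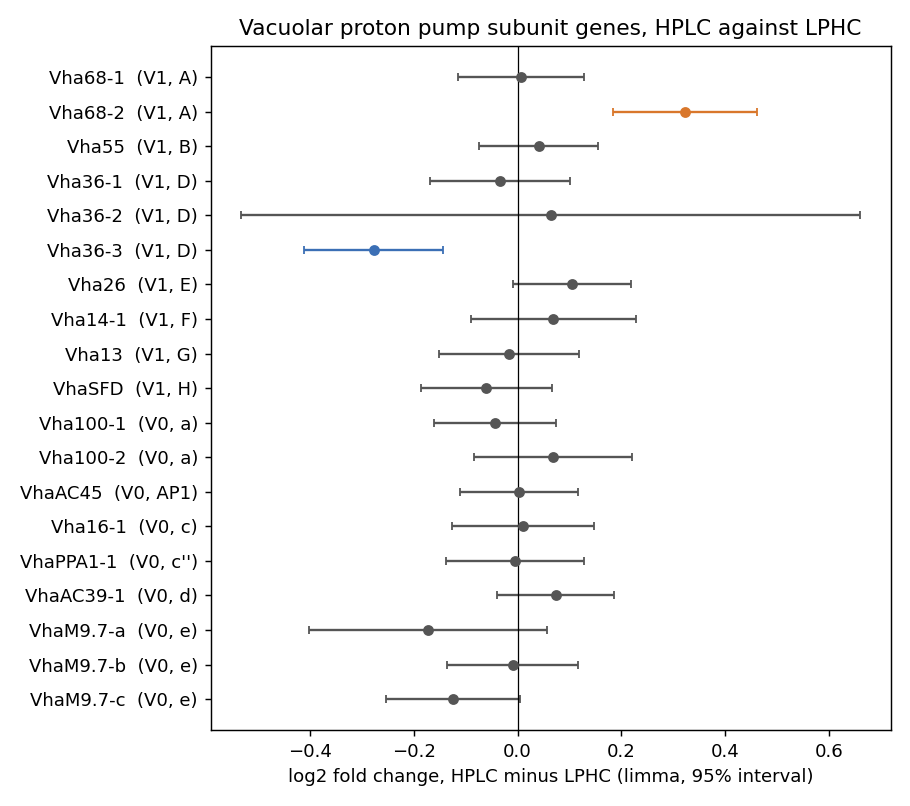
Log2 fold change, HPLC minus LPHC, of the 19 tested subunit genes (points, limma on log2 of the normalised count plus 1) with 95% intervals (bars), V1 genes above V0 genes. Vha68-2 (orange, 0.32) and Vha36-3 (blue, −0.28) were called, and the intervals of the 17 other genes (grey) include 0.

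Libraries held between 19834344 and 38402635 reads. Together the 24 genes took 0.580% ± 0.0111 of LPHC reads and 0.564% ± 0.0140 of HPLC reads (mean ± SD, 5 libraries a diet). Library shares ran from 0.568% to 0.593% on LPHC and from 0.551% to 0.586% on HPLC, so the diets overlapped. Summed normalised counts of the 24 genes went the other way, at 160090 ± 2578 on LPHC and 162875 ± 3937 on HPLC. The direction thus depends on the scaling, and neither difference was tested. A brain library mixes many cell types, and in it fewer cells of a type cannot be told apart from less RNA per cell.

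The A subunit carries the catalytic sites that split ATP, and its paralogues differed in their response. Vha68-2 had normalised counts of 5419, 6397, 5040, 5798 and 5636 in LPHC libraries 1 to 5, and of 6583, 6877, 7243, 7284 and 7315 in HPLC libraries 1 to 5. The lowest HPLC library was above the highest LPHC library. Among all genes tested, 29.2% had diets that did not overlap. The mean rose from 5658 ± 501 to 7060 ± 320 (SD, n = 5 each), a ratio of 1.25 and a log2 difference of 0.32 ± 0.07 (SE; by limma, adjusted p = 8.63e-04).

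Vha68-1, the more abundant A paralogue, had counts of 13473, 14527, 13380, 13320 and 14440 on LPHC and of 13060, 14632, 13660, 14300 and 13846 on HPLC. The diets overlapped fully. Its log2 fold change was 0.0075 ± 0.06 (SE; by limma, adjusted p = 0.932), with a 95% interval from −0.11 to 0.13. The coding sequences of Vha68-1 and Vha68-2 both span 1845 bases; the lengths of their untranslated ends were not taken into account. Vha68-2 made up 29.0% ± 1.40 of A subunit reads per coding length on LPHC and 33.7% ± 1.08 on HPLC (mean ± SD, 5 libraries a diet). Its share ran from 27.4% to 30.6% on LPHC and from 32.0% to 34.6% on HPLC, without overlap.

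Within each library, the log2 ratio of Vha68-1 to Vha68-2 was 1.29 ± 0.10 on LPHC and 0.98 ± 0.07 on HPLC (mean ± SD, 5 libraries a diet). The difference was −0.32 with a 95% interval from −0.43 to −0.19, by an exact permutation test over the libraries, two-sided, p = 0.00794, the smallest that 126 splits allow. Adjusted over the 6 paralogue pairs compared, it was p = 0.0476 (exact permutation). A single scaling factor per library cancels in this ratio, which was not recomputed under quantile scaling. Whether reads were shared between the paralogues was not checked here.

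The third A paralogue, Vha68-3, had 14 reads over the LPHC libraries and 9 over the HPLC libraries. Summed over paralogues, A subunit reads per kb of coding length were 10562 ± 545 on LPHC and 11361 ± 426 on HPLC. The B subunit gene Vha55, whose product alternates with A in the ring, stood at 12213 ± 393 and 12560 ± 333 per kb (SD, n = 5 each). Its log2 fold change was 0.04 ± 0.05 (SE; by limma, adjusted p = 0.582).

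The D subunit, part of the central shaft, held the only gene called lower with the deposited scaling. Vha36-3 had normalised counts of 702, 663, 719, 639 and 696 on LPHC and of 541, 536, 611, 522 and 614 on HPLC. The highest HPLC library was below the lowest LPHC library. The mean went from 684 ± 32.0 to 565 ± 44.0 (SD, n = 5 each), with a log2 fold change of −0.28 ± 0.06 (SE; by limma, adjusted p = 0.00221). When libraries were scaled to equal neuron-marker counts instead, it was −0.10 and not called (adjusted p = 0.553).

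Vha36-1, the main D paralogue, had counts of 4562, 4441, 4024, 3849 and 4259 on LPHC and of 3792, 4021, 4540, 4252 and 4043 on HPLC. The diets overlapped, and its log2 fold change was −0.03 ± 0.06 (SE; by limma, adjusted p = 0.707), with an interval from −0.17 to 0.10. Per coding length Vha36-3 supplied 13.8% ± 0.828 of D subunit reads on LPHC and 11.9% ± 0.828 on HPLC (mean ± SD, 5 libraries a diet). Its log2 ratio to Vha36-1 was lower on HPLC by a difference of −0.24, interval −0.41 to −0.09 (exact permutation p = 0.0159, adjusted over the 6 pairs p = 0.0476). That adjusted p ranged from 0.0238 to 0.0952 when each library was left out in turn, and it passed 0.05 without LPHC replicate 1 (0.0714), LPHC replicate 3 (0.0714), LPHC replicate 4 (0.0714), LPHC replicate 5 (0.0714), HPLC replicate 1 (0.0714), HPLC replicate 2 (0.0714) and HPLC replicate 4 (0.0952).

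Vha36-3 had been placed among tissue-restricted paralogues, yet it was read in every brain library. The 6 other listed restricted paralogues in the table had few reads. Vha36-2, of the D subunit, passed the filter on low values with means of 13.0 ± 4.45 on LPHC and 13.4 ± 3.63 on HPLC (mean ± SD, 5 libraries a diet). Its interval was wide, from −0.53 to 0.66 on the log2 scale. Vha14-2 (F subunit) had 43 and 30 reads over the LPHC and HPLC libraries, VhaAC39-2 (d subunit) 26 and 36, Vha16-4 (c subunit) 19 and 5, and Vha100-5 (a subunit) 14 and 10. A count of 3 reads in a library, taken here as the floor, corresponds to a normalised count between 2.09 and 4.19. Vha100-5 shares 527 bases of exon with an antisense RNA gene, and reads of the pair cannot be told apart where strand was not used.

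**Figure D2:**
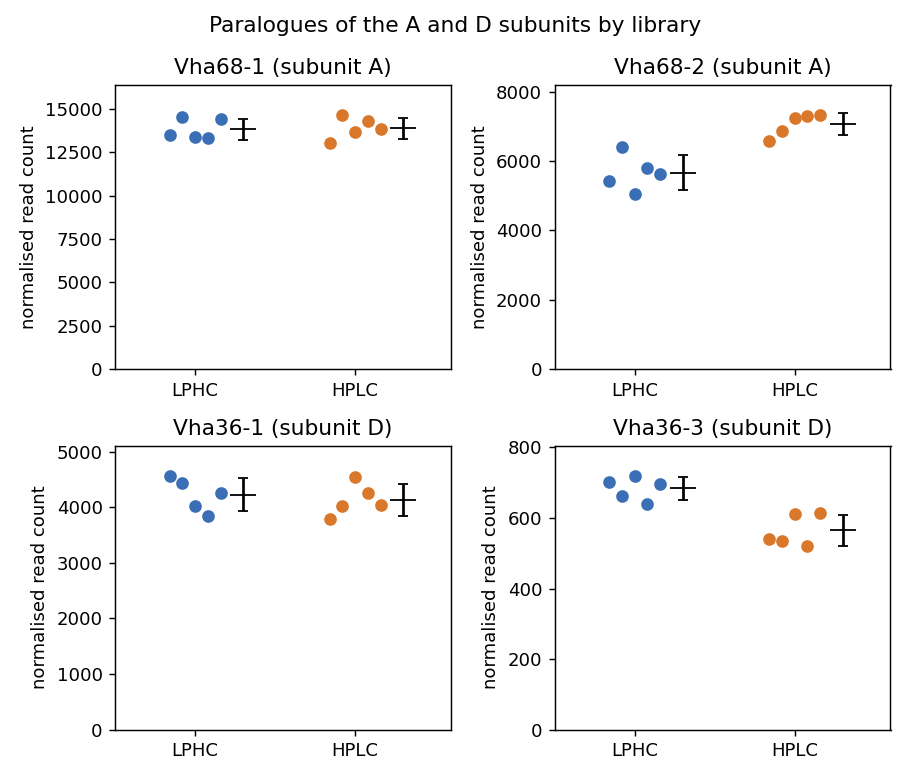
Normalised read counts of the A subunit paralogues (top) and D subunit paralogues (bottom) in the 5 LPHC (blue) and 5 HPLC (orange) libraries, with the mean and SD beside each group (black). Axes start at 0 and differ between panels. The diets do not overlap for Vha68-2 and Vha36-3, and overlap for Vha68-1 and Vha36-1.

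No stalk or regulatory subunit of V1 was called with the deposited scaling. Vha26, the E subunit of the stalks, had counts of 15988, 15225, 16163, 16232 and 16279 on LPHC and of 17129, 17521, 17124, 16449 and 17665 on HPLC. Its diets did not overlap, but limma did not call it (log2 fold change 0.10 ± 0.05, SE, adjusted p = 0.131). DESeq2 on recovered reads gave an adjusted p of 0.0232 for it and edgeR's quasi-likelihood test 0.124. It lost its direction under quantile scaling, where the log2 fold change was −0.00041. Of the 19 tested subunit genes, 3 had diets that did not overlap, and of these only Vha26 was not called. Among all 9896 genes tested, 2885 (29.2%) had diets that did not overlap.

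Vha13, the G subunit that pairs with E, averaged 8397 ± 497 on LPHC and 8306 ± 577 on HPLC. Vha14-1, the F subunit of the shaft, averaged 2253 ± 162 and 2372 ± 290. VhaSFD, the H subunit that helps silence V1 when it is detached from the membrane, averaged 8183 ± 530 and 7838 ± 297 (SD, n = 5 each). Their log2 fold changes were −0.02, 0.07 and −0.06, none of them called. Direction followed scaling for several of these small values. VhaSFD was called lower under upper-quartile (−0.14) and quantile (−0.15) scaling, and was at 0.12 under neuron-marker scaling. Vha44, which encodes the C subunit, was not analysed here.

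In the membrane sector, none of the 9 tested genes was called, and their median log2 fold change was −0.0040, against 0.02 for the 10 tested genes of V1. The a subunit, which holds the proton path, came from Vha100-1 and Vha100-2, both on the list of widely expressed paralogues. Vha100-1 is known in flies for its role in neurons, where it acts in synaptic vesicle release and in sorting to lysosomes. It had counts of 12833, 13513, 12809, 13034 and 13506 on LPHC and of 13159, 13144, 11758, 13081 and 12650 on HPLC. Per coding length it made up 78.4% ± 1.3 of a subunit reads on LPHC and 77.1% ± 1.42 on HPLC (mean ± SD, 5 libraries a diet). Its log2 ratio to Vha100-2 differed between diets by −0.11, interval −0.26 to 0.05 (exact permutation p = 0.151, adjusted over the pairs p = 0.226). Gene models of Vha100-1 and Alg13, on the opposite strand, share 11 bases of exon.

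The c ring was the most abundant part of the pump per length. Vha16-1, which encodes the proteolipid repeated around the ring, had 81961 ± 4848 normalised reads per kb of coding length on LPHC and 82564 ± 5030 on HPLC (mean ± SD, 5 libraries a diet). Its counts were 36513, 37159, 41188, 40432 and 41415 on LPHC and 38875, 38188, 41511, 36867 and 42712 on HPLC, which overlap. VhaPPA1-1, the c″ subunit that joins the same ring, stood at 10258 ± 716 and 10225 ± 616 per kb. VhaAC39-1, the d subunit that couples the ring to the shaft, stood at 6332 ± 132 and 6668 ± 300, and the accessory subunit gene VhaAC45 at 8012 ± 329 and 8021 ± 185. Intervals of the log2 fold change were −0.13 to 0.15 for Vha16-1, −0.14 to 0.13 for VhaPPA1-1, −0.04 to 0.19 for VhaAC39-1 and −0.11 to 0.12 for VhaAC45.

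The small membrane subunit e was the most evenly divided among paralogues. On LPHC VhaM9.7-a supplied 48.8% ± 1.94, VhaM9.7-b 39.2% ± 1.58 and VhaM9.7-c 12% ± 1.13 of e subunit reads per coding length. On HPLC they supplied 46.5% ± 3.17, 41.7% ± 1.75 and 11.8% ± 1.47 (SD, n = 5 each). The first and the last of them are of unsure spread over tissues.

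VhaM9.7-a had counts of 2441, 1866, 2292, 2087 and 2113 on LPHC and of 1713, 1877, 2581, 1691 and 1799 on HPLC. HPLC library 3 held the highest value of all 10, while the other 4 HPLC libraries lay below 4 of the 5 LPHC libraries, and above LPHC library 2 only in HPLC library 2. Its log2 fold change was −0.17 ± 0.11 (SE; by limma, adjusted p = 0.214). Without HPLC replicate 3 it was −0.28 and called (adjusted p = 0.00285). Its log2 ratio to VhaM9.7-b differed by −0.16, interval −0.34 to 0.03 (exact permutation p = 0.103, adjusted over the pairs p = 0.206), and without HPLC replicate 3 by −0.23 (adjusted p = 0.0476, exact permutation). For VhaM9.7-c the log2 fold change was −0.12 ± 0.06 (SE; by limma, adjusted p = 0.115). Under upper-quartile and quantile scaling it was called at −0.21 and −0.24, and under neuron-marker scaling its value was 0.06.

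**Figure D3:**
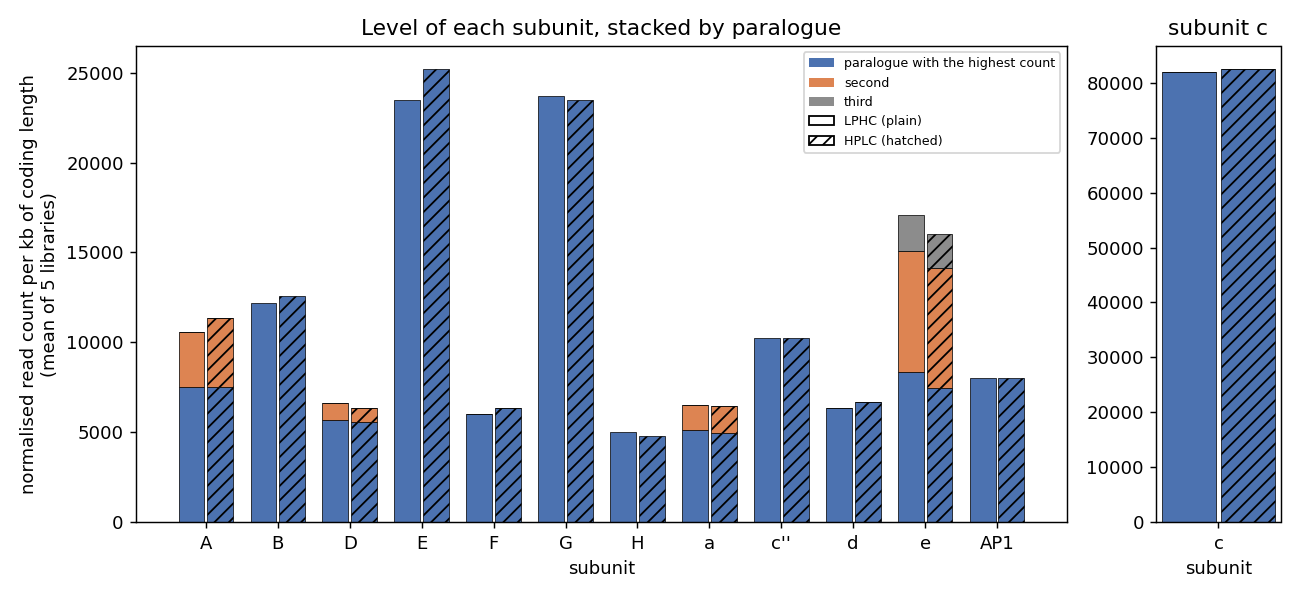
Mean normalised read count per kb of coding length (y axis, 5 libraries a bar) of each subunit (x axis) on LPHC (plain) and HPLC (hatched), stacked by paralogue. The c subunit has its own axis because it reaches 82566 on HPLC, against 25224 for E, the next highest subunit there. The Vha68-2 block of A is taller on HPLC, while most other pairs of bars differ by less than the larger SD.

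Subunits of the same complex were read at unequal levels. On LPHC the order per coding length after c was G (23720 ± 1405), E (23462 ± 639), e (17106 ± 1086), B (12213 ± 393), A (10562 ± 545), c″ (10258 ± 716), the accessory subunit (8012 ± 329), D (6628 ± 410), a (6528 ± 264), d (6336 ± 131), F (6030 ± 438) and H (5024 ± 325), with SD over n = 5. Neighbours G and E, A and c″, and each step in the run from D to F lay within the larger SD of the pair. These levels count reads from the whole transcript against coding length alone, so a gene with long untranslated ends appears higher than it is.

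Libraries differed in how they read short and long subunit genes, whatever the diet. LPHC library 1 was the highest of its diet for 6 of the 8 subunit genes with coding lengths under 1000 bases and means of at least 1000, and HPLC library 3 was the highest of its diet for the same 6: Vha36-1, Vha14-1, Vha13, VhaPPA1-1, VhaM9.7-a and VhaM9.7-b. The median log2 deviation of the 8 short genes from their diet mean was 0.12 in LPHC library 1 and 0.15 in HPLC library 3. The 8 longer genes had medians of −0.04 and −0.0066 in those libraries. Over all genes with a coding length, 3021 short genes had median deviations of 0.09 and 0.14 there, and 6374 longer genes −0.03 and −0.05. The length limit was chosen after the values were seen. With these libraries left out together, limma still called Vha68-2 higher (0.30, adjusted p = 0.00186) and Vha36-3 lower (−0.30, adjusted p = 0.00197). VhaM9.7-a was then called lower (−0.24, limma adjusted p = 0.00555). Its deviation in HPLC library 3 was 0.44, so leaving that library out lowers its HPLC mean by construction. The call of VhaM9.7-a is therefore no separate support for a fall. Length did not describe every library. HPLC library 1 was the lowest of its diet for 10 of the 16 genes. Its medians were −0.10 for the short and −0.09 for the longer subunit genes. Over all genes it stood at −0.05 for short and 0.02 for longer ones.

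**Figure D4:**
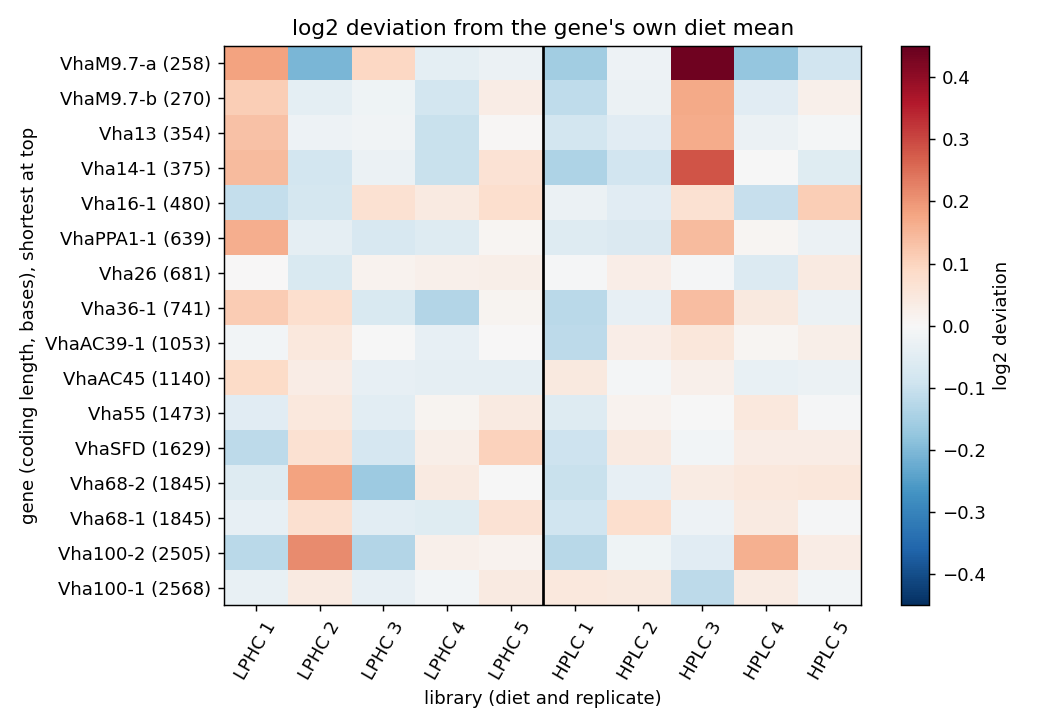
Log2 deviation of 16 subunit genes with means of at least 1000 (rows, ordered by coding length in bases) from their own diet mean in each library (columns, LPHC left of the line and HPLC right). Red is above and blue below the diet mean. LPHC 1 and HPLC 3 are red for most short genes, with 0.44 for VhaM9.7-a in HPLC 3.

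Other genes tied to the pump were read from listed sets. ATP6AP2 and CG31030, which RefSeq's gene table also knows as VhaM8.9 and VhaAC45RP, encode accessory proteins and stand outside the 24. ATP6AP2 averaged 7194 ± 334 and 7321 ± 433, and CG31030 7745 ± 426 and 7064 ± 330 on LPHC and HPLC (SD, n = 5 each). Neither was called, with limma adjusted p of 0.771 and 0.0818, but CG31030 was called lower under upper-quartile and quantile scaling, at −0.22 and −0.21. None of 5 tested genes of pump assembly and regulation was called with the deposited scaling. Among them Mitf, the fly TFEB relative that switches on pump genes, had a log2 fold change of −0.09 ± 0.06 (SE; by limma, adjusted p = 0.239), called lower under upper-quartile (−0.17) and quantile (−0.16) scaling and at 0.092 under neuron-marker scaling. Rbcn-3A and Rbcn-3B, which help join V1 to V0, stood at 0.07 and 0.06. Under neuron-marker scaling Rbcn-3B was called higher (0.24), and under quantile scaling mtd was called lower (−0.22).

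Lysosomal gene products work in the space the pump acidifies. Of 26 tested lysosomal enzymes and membrane proteins 14 were higher, 3 were lower and 9 were not called, with a median log2 fold change of 0.30. Over all 9896 genes tested 40.9% were called with the deposited scaling, 2185 higher and 1866 lower. The share was 50.9% under upper-quartile scaling (1766 higher), 56.4% under quantile scaling (1682 higher) and 33.2% under neuron-marker scaling (3104 higher). Under upper-quartile, quantile and neuron-marker scaling 13, 12 and 15 lysosomal genes were higher and 4, 4 and 0 lower. The smallest adjusted p belonged to Gba1b, a glucocerebrosidase (1.96 ± 0.09), and of the mannosidases LManII (1.72 ± 0.08) and LManI (1.56 ± 0.10; SE, limma adjusted p at most 1.57e-09). Of 8 vesicular transporters, most of them driven by the proton gradient, 2 were higher and 2 lower, with MFS9 at 0.74, MFS10 at 0.54, prt at −0.34 and VGAT, which loads GABA, at −0.14. Under neuron-marker scaling 4 were higher, with VGlut (0.23) and Vmat (0.22) added, and none was lower, with prt at −0.16 and VGAT at 0.038. Under upper-quartile and quantile scaling 2 were higher and 3 lower, with VAChT added at −0.22. Of 13 subunit genes of the mitochondrial ATP synthase, the related rotary enzyme that makes ATP, 5 were higher and none lower at a median of 0.15, led by ATPsyngamma (0.27), ATPsynC (0.26) and blw (0.21). Under upper-quartile scaling 1 of the 13 was called, under quantile scaling 0, and under neuron-marker scaling 8. No test of the pump genes against these lists was made.

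Cell type markers were read beside these values and against the background, in which 22.1% of all genes were higher and 18.9% lower with the deposited scaling. The marker lists were chosen with earlier results of these data known, so their counts are no independent measure of cell types. All 10 tested fat body markers were higher on HPLC, and the list of 12 took 0.0506% to 0.0679% of reads on LPHC and 0.311% to 0.390% on HPLC. Of 11 haemocyte markers 7 were higher. Of 8 neuron markers 3 were lower (para, Syt1 and Rdl) and none higher, and their summed share ran from 0.564% to 0.675% on LPHC and from 0.458% to 0.549% on HPLC. Of 8 glia markers 4 were higher (Indy, Tret1-1, Gs2 and Eaat1). The other 4 were not called: repo (−0.03), moody (−0.0076), nrv2 (0.10) and alrm (0.25). The glia list took 0.214% to 0.230% of reads on LPHC and 0.234% to 0.273% on HPLC. Photoreceptor markers, 6 of 17 lower, took 11.7% to 12.8% and 8.69% to 10.7% of reads, although the tissue is labelled brain. Muscle markers, 5 of 7 lower, took 0.409% to 0.461% and 0.365% to 0.382%. These counts moved with scaling, and so did those over all genes. Of the 9896 genes tested, 1766 were higher and 3275 lower under upper-quartile scaling, and 1682 and 3902 under quantile scaling. Under neuron-marker scaling 3104 were higher and 185 lower. Under upper-quartile and quantile scaling 2 glia markers were higher, 6 neuron markers lower and 6 muscle markers lower. Photoreceptor markers then had 8 and 7 lower, and haemocyte markers stayed at 7 higher. Under neuron-marker scaling, which by construction evens out the neuron markers, no photoreceptor marker was called, 5 glia and 11 haemocyte markers were higher, and among muscle markers 1 was higher and 2 lower. No marker of these lists that was in the table was at 0 in every library. The part of these markers in the values of Vha68-2 and Vha36-3 was not tested.

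Tubules and midgut are known to be rich in the pump. None of 3 tested Malpighian tubule markers was called (1 was higher under neuron-marker scaling), and the 4 in the table took 0.00680% to 0.00775% of reads on LPHC and 0.00653% to 0.00813% on HPLC. The highest of them, Oatp58Dc, averaged 1481 ± 76.6 on LPHC and 1611 ± 118 on HPLC. Of 3 tested midgut markers 1, Amy-p, was higher, and the 5 in the table took 0.000679% to 0.000802% and 0.00200% to 0.00295%. None of 3 tested testis markers was called, and the 8 in the table took at most 0.000958% of reads in any library.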

How the data were processed

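RNA of 10 brain libraries had been sequenced. The authors deposited 1 table of normalised counts per gene, a signal that is never negative. HISAT2 is named in the submitters' processing notes; for its version, the counting tool, strand, annotation and genome build, the answer was not given in the sources used here. Coordinates are not printed. Every deposited value was a whole multiple of 1 constant per library (100% of values within 1e-06), the reciprocal of DESeq2's median-of-ratios size factor, so whole reads were recovered.

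limma 3.58.1 (R 4.3.3, trend, robust) was fitted to log2(value + 1) of 9896 genes (mean 10 or more), two-sided, with Benjamini-Hochberg adjustment over all of them and a threshold of 0.05. Fold changes are on that scale and understate those of low genes. edgeR 4.0.16 and DESeq2 1.42.0 were run on recovered reads and called 4039 and 4153 genes, against 4051 by limma. All 3 were also run on simulated counts in which the same spread setting served every gene. Far fewer genes were changed there than were called here, so that run cannot show how the tools perform on these data. Other alternatives were pseudocounts, filters, scalings, a replicate block and each library left out. Coding lengths are the longest per gene in Ensembl release BDGP6 annotation. All Vha genes and Mitf were named. So were up to 3 called members of each other list by smallest adjusted p, or 1 by smallest p where none was called. ATP6AP2, CG31030, VGAT, VGlut, Vmat, VAChT, mtd, Oatp58Dc, the Rbcn-3 genes and the other glia and tubule markers were named after their values were seen. Members, lists and paralogue classes were chosen with earlier results of these data known; the classes rest on general knowledge. Markers and pump genes not found in the table are not analysed here.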

Additional observations from a re-analysis of the deposited data

Results flagged for a closer look

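In 4 of the 38 sets of 5 libraries (19 genes, 2 diets) the extreme library stood apart from the nearest other by more than 0.71 of the set's range on the log2 scale, Dixon's 95% limit. Chance alone does this in about 1 in 20 sets. The 38 sets share the same 10 libraries and are not independent, so their count cannot be weighed against that rate. VhaM9.7-a reached 2581 in HPLC replicate 3, against 1877 in the next library, and Vha13 reached 9302 in the same library, against 8234. Vha26 was low in LPHC replicate 2, at 15225 against 15988, and VhaAC39-1 was low in HPLC replicate 1, at 6473 against 7054.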

How the results depend on the processing

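Vha68-2 was called higher under every alternative run, with log2 fold changes from 0.24 (upper-quartile scaling) to 0.51 (neuron-marker scaling), and Vha36-3 lower under all but neuron-marker scaling (−0.10, adjusted p = 0.553). The median of all genes was −0.11, −0.14 and 0.15 under upper-quartile, quantile and neuron-marker scaling, against −0.03 as deposited. Relative to it Vha36-3 lay at −0.25, −0.26 and −0.25 under these scalings and at −0.25 as deposited, and Vha68-2 at 0.35, 0.39, 0.35 and 0.35. The 5 genes called higher under neuron-marker scaling, all widely expressed, were Vha68-2, Vha26, Vha55, Vha100-2 and VhaAC39-1, with 0 lower; 3 were called lower under upper-quartile and quantile scaling (Vha36-3, VhaM9.7-c and VhaSFD), and 2 higher with DESeq2 (Vha68-2 and Vha26). Over all 9896 genes tested, neuron-marker scaling called 3104 higher and 185 lower. Upper-quartile and quantile scaling called 3275 and 3902 of them lower, and DESeq2 called 2218 higher. Without HPLC replicate 3, whether alone or left out together with LPHC replicate 1, 2 pump genes were lower. Leaving out single libraries gave 1 higher and 1 to 2 lower. The median of the widely expressed genes was −0.077 with upper-quartile, −0.078 with quantile and 0.19 with neuron-marker scaling. The cause was not tested.

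Signs of uncalled genes turned with scaling. Under neuron-marker scaling they were 0.14 (Vha100-1), 0.17 (Vha13), 0.15 (Vha36-1), 0.0092 (VhaM9.7-a), 0.17 (VhaM9.7-b), 0.058 (VhaM9.7-c), 0.18 (VhaPPA1-1) and 0.12 (VhaSFD). Under upper-quartile scaling they were −0.016 (Vha100-2), −0.015 (Vha14-1), −0.074 (Vha16-1), −0.014 (Vha36-2), −0.010 (VhaAC39-1), −0.044 (Vha55), −0.077 (Vha68-1) and −0.082 (VhaAC45), and under quantile scaling −0.026 (Vha14-1), −0.12 (Vha16-1), −0.00041 (Vha26), −0.045 (Vha36-2), −0.036 (Vha68-1), −0.082 (Vha55) and −0.085 (VhaAC45). With edgeR VhaAC45 was at −0.00024, and without LPHC replicate 1 and HPLC replicate 3 together, added after the data were seen, Vha16-1 was at −0.033 and VhaPPA1-1 at 0.0020. Leaving out 1 library gave −0.058 to 0.017 for Vha13, −0.0022 to 0.10 for Vha14-1, −0.017 to 0.036 for Vha16-1, −0.054 to 0.22 for Vha36-2, −0.011 to 0.030 for Vha68-1, −0.0089 to 0.024 for VhaAC45, −0.052 to 0.019 for VhaM9.7-b and −0.039 to 0.037 for VhaPPA1-1.

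Among paralogue ratios, the difference without 1 library ran from −0.28 to −0.21 for Vha36-3, −0.34 to −0.29 for Vha68-1 over Vha68-2, −0.039 to 0.26 for Vha36-2 and −0.23 to −0.13 for VhaM9.7-a. Without LPHC replicate 1 and HPLC replicate 3, those of Vha36-3 (−0.26) and Vha68-1 (−0.29) had an adjusted p of 0.114, where 4 libraries a diet leave little room to pass the threshold after adjustment over 6 pairs. As a replicate block they were −0.24 and −0.32 with an adjusted p of 0.188, in a design of 5 pairs that cannot reach 0.05. Libraries with the same replicate number did not deviate together (correlations −0.025 to 0.0050) and were treated as unpaired. Other pairings were not tested, and such correlations cannot show that no batch was shared. The blocked limma fit called the same 2 genes, Vha68-2 and Vha36-3. Genes at the floor of 3 reads allow no statement.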
